A study of Mus musculus with 20 samples.

Results

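Polycomb-marked distal open elements were accessible stretches of chromatin outside promoters. They had called peaks of the repressive histone mark H3K27me3 in Nkx2.1-lineage cells of the postnatal mouse neocortex. They were chosen from 32120 consensus regions of open chromatin, by an annotation other than promoter (no annotated start site within 1 kb) and by an H3K27me3 broad peak in each of the 2 WT libraries. The choice gave 1085 elements, which was 5.96% of the 18211 distal regions and 3.38% of all consensus regions. The other 17126 distal regions served for comparison.

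H3K27me3 is laid down by the Polycomb repressive complex PRC2 and is typical of silenced developmental genes, where it lies over promoters and nearby regulatory DNA. Enhancers are usually marked by H3K4me1, and active ones also by H3K27ac. H3K27ac and H3K27me3 sit on the same lysine, so a single histone tail cannot carry both. A distal element that is open and holds H3K4me1 and H3K27me3 without H3K27ac is often called a poised enhancer. Tcf4 is a basic helix-loop-helix factor of the E protein class, which binds E-boxes as a homodimer or with a partner such as Olig2.

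The study compared Tcf4 cKO mice, in which Nkx2.1-Cre recombined the floxed Tcf4 alleles (Tcf4 f/f), with WT mice, which carried Nkx2.1-Cre without the floxed alleles. Both carried the Ai3 reporter, and GFP-positive cells were sorted from neocortex at postnatal day 7 or 8. ATAC-seq and Cut&Tag for H3K4me1, H3K27ac and H3K27me3 were done with 2 libraries per genotype. Tcf4 binding was read with an anti-Flag antibody in 2 libraries of a further line, Tcf4-tag, in which Nkx2.1-Cre switches on a tag on the endogenous protein. The GFP gate holds every cell type of the Nkx2.1 lineage, so marks on the same element could come from different cells, and fewer cells with a mark cannot be told apart from less of it per cell. The sources used here do not say whether pups were pooled or litters shared, so the spread between libraries may be technical. The deleted exons leave no trace in peak lists, and the deletion was not checked here.

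The libraries held 54162 to 72308 ATAC peaks, 51510 to 72790 H3K4me1 peaks, 22026 to 28413 H3K27ac peaks and 15085 to 19182 H3K27me3 peaks. The Tcf4 libraries were unequal, with 28606 and 16834 peaks. H3K27me3 peaks lay within 1 kb of the start site of 35 of 39 Hox genes in both WT libraries and of 28 in both Tcf4 cKO libraries, against 1 and 0 for H3K27ac. At the marker genes, ATAC peaks in both WT libraries lay at the start site of 4 of 7 genes of oligodendrocyte precursors and oligodendrocytes, 3 of 5 of astrocytes, 4 of 6 of interneurons, 1 of 5 of projection neurons, 2 of 5 of microglia and 3 of 5 of endothelial cells. In both Tcf4 cKO libraries the counts were 4, 3, 2, 0, 2 and 3. Of the 5 microglial genes, Cx3cr1, Csf1r and Aif1 had no peak of any kind at their start sites, while P2ry12 and Tmem119 had ATAC peaks in all 4 libraries. H3K27me3 lay at 5 of 6 interneuron and 4 of 5 projection neuron genes in both WT libraries. The part of cell composition in the results below was not tested.

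Genomic sequence is given for 7 elements that the results turn on, as the central 300 bases of each on the plus strand of GRCm38 (mm10). They include the elements with the largest difference in accessibility in each direction (Slc27a3 lower and A230072I06Rik higher in Tcf4 cKO). The next largest decrease among elements with Tcf4 peaks in both libraries is that of Adamts12. Also given are the strongest element with H3K27ac in Tcf4 cKO alone (Scg2) and in WT alone (Col13a1). The elements near Olig2 and Dlx2 were chosen after their values were seen. The Dlx2 sequence is that of the element with the lowest difference of 3. Capitals mark the E-box core CAGCTG, the core CAGGTG, the core CATCTG or the NFI site TTGGCA, each on either strand. Each element is named by its nearest gene, which can lie far away (142568 bp at the A230072I06Rik element).
Slc27a3 element, chr3:90368636-90368935: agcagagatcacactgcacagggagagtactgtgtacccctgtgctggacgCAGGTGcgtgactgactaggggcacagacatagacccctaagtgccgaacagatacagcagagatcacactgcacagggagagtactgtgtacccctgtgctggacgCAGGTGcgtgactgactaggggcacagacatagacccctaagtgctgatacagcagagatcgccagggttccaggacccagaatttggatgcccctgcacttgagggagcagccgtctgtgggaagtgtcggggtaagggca
Adamts12 element, chr15:11174091-11174390: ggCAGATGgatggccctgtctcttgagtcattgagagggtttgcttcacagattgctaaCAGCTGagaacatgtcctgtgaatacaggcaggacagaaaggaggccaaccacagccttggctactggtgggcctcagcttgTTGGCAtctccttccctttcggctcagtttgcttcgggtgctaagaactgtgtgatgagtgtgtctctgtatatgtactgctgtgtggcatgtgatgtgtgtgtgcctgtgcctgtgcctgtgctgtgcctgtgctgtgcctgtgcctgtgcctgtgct
Olig2 element, chr16:91246483-91246782: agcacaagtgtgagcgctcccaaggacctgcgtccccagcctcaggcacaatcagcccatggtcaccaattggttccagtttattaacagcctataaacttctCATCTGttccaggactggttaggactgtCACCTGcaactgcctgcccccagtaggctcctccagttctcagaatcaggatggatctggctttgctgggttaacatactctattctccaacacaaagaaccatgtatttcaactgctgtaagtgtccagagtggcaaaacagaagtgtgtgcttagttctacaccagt
Dlx2 element, chr2:71598685-71598984: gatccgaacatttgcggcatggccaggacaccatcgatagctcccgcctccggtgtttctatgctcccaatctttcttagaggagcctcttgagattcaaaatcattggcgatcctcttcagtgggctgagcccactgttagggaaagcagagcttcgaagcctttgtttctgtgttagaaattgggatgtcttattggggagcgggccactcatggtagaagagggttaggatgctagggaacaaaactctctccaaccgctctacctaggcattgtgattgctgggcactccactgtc
A230072I06Rik element, chr8:12135638-12135937: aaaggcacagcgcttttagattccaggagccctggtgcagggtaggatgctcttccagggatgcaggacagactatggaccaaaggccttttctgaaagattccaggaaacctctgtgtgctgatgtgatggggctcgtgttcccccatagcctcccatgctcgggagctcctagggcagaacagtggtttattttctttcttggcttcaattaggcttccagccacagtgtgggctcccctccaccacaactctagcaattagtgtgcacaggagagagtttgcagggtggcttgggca
Scg2 element, chr1:79450484-79450783: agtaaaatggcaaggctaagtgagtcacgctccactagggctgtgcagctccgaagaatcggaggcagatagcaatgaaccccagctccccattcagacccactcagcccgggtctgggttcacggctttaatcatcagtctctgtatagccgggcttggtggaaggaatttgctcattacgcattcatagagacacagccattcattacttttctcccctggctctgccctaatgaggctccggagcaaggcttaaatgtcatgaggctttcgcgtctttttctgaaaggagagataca
Col13a1 element, chr10:61936893-61937192: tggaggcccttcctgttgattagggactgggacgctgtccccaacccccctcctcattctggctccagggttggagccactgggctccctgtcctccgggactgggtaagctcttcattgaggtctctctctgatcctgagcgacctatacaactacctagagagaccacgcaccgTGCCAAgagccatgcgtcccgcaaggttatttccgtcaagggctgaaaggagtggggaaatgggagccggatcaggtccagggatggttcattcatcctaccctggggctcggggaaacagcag

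The Slc27a3 window held CAGGTG at 2 places. The Adamts12 window held 1 CAGCTG, 1 CATCTG and 1 TTGGCA, and the Olig2 window 1 CAGGTG and 1 CATCTG. The Dlx2, A230072I06Rik and Scg2 windows held none of these 4 motifs, and the Col13a1 window held 1 TTGGCA.

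The H3K27me3 signal that defined the elements was modest. The series has no Cut&Tag library with a control antibody, so background at open chromatin cannot be told apart from a weak mark. Its median fold enrichment over local background was 2.34 in WT replicate 1 and 2.28 in WT replicate 2, and the median peak width was 1236 and 1329 bp. At 359 elements (33.1%) the peak was narrower than 1 kb in both libraries, and at 270 (24.9%) it spanned 2 kb or more in both. Only 181 elements kept their place when WT peaks needed a -log10 q of at least 5, and a peak in replicate 2 alone or replicate 1 alone would have admitted 1878 or 1544 distal regions. The elements lay in 1079 separate H3K27me3 intervals after the WT peaks were merged, and 6 of these intervals held 2 elements each. A marked promoter shared the interval of 20 elements (1.84%). Just outside the rule were 1252 distal regions with H3K27me3 in 1 WT library, where the median fold enrichment was 2.83 and the median peak width 594.5 bp.

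The elements were mostly intergenic. Of the 1085, 546 were intergenic (50.3%, 95% Wilson interval 47.4 to 53.3) against 43.9% of other distal regions, and 339 were intronic (31.2%, 28.6 to 34.1) against 44.4%. A further 94 were exonic, 67 lay in 3' UTRs, 25 just downstream of genes and 14 in 5' UTRs. The intervals here and below cover counting error only, since neighbouring regions are not independent. The median distance to the nearest annotated start site was 16019 bp at the elements and 20122 bp at other distal regions. In a second annotation (GENCODE M21), 138 elements (12.7%) had a start site within 1 kb, against 6.71% of other distal regions.

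The elements were richer in G and C than other distal regions, but not more often of high CpG ratio than consensus regions as a whole. Their median GC content was 53.3%, against 48.4% at other distal regions, 52.7% over all consensus regions and 62.2% at open promoters with H3K27me3. The ratio of observed to expected CpG exceeded 0.6 at 265 elements (24.4%), against 4.44% of other distal regions. It did so at 32.7% of all consensus regions and 77.4% of open promoters with H3K27me3. This feature was unevenly spread. Among elements whose mean accessibility was within 0.5 (log2) between genotypes, 249 of 852 passed that ratio (29.2%). Of the 143 that were lower in Tcf4 cKO, 12 passed it (8.39%), and of the 90 that were higher, 4 (4.44%). Other distal regions were uneven in the same way, as 1.13% of the lower and 0.56% of the higher ones passed it.

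Genes for developmental transcription factors were the nearest gene in a larger share than at other distal regions. Homeobox, forkhead, T-box, SOX, bHLH and zinc finger factors of 6 lists were nearest to 73 elements (6.73%, 5.38 to 8.38), against 288 other distal regions (1.68%). Open promoters with H3K27me3 also had a larger share than other distal regions, 121 of 2557 (4.73%, 3.97 to 5.63). Among the elements, the share was 3.62% where the H3K27me3 peak was narrow, 6.14% at intermediate width and 11.9% where it was wide. Homeobox genes, which pattern the embryo, took 35 elements at 29 genes, and 33 of these 35 had H3K27me3 in both Tcf4 cKO libraries, against 654 of all 1085 (60.3%), which is a description of the mark that chose them. T-box factors took 5 elements (Eomes, Tbr1, Tbx20, Tbx4 and Tbx5), and forkhead factors 5. The bHLH and zinc finger lists took 14 each. No element had a SOX gene, a gene of the astrocyte list or a gene of the microglia list as its nearest gene, and these lists took 0.18%, 0.30% and 0.035% of other distal regions.

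H3K4me1 peaks lay at a larger share of the elements than of other distal regions in every library. An H3K4me1 peak covered part of 78.8% and 86.7% of the elements in the WT libraries and 91.4% and 88.8% in the Tcf4 cKO libraries. The corresponding shares at other distal regions were 62.8%, 69.6%, 75.5% and 72.3%. The gap was thus 15.96 and 17.1 percentage points in WT and 15.9 and 16.4 in Tcf4 cKO, and it did not differ between genotypes beyond the spread of the libraries (difference -0.35 points, two-sided exact permutation test, p = 0.67, adjusted p = 0.67). The sign of this difference turned without WT H3K4me1 replicate 2 (0.23 points) and with H3K4me1 peaks of -log10 q of at least 5 (3.67 points). The WT and Tcf4 cKO libraries did not overlap in the share of elements with H3K4me1 (82.8% ± 5.6 against 90.1% ± 1.9, SD, n = 2), but 2 against 2 libraries cannot give an exact p below 0.33, which is the value here (0.5 after Benjamini-Hochberg adjustment over 6 comparisons). The difference of 7.33 points became 3.36 without WT H3K4me1 replicate 1, 11.3 without WT replicate 2 and 14.5 with H3K4me1 peaks of -log10 q of at least 5. The total number of H3K4me1 peaks was also higher in both Tcf4 cKO libraries, and its part in this difference was not tested.

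**Figure D1:**
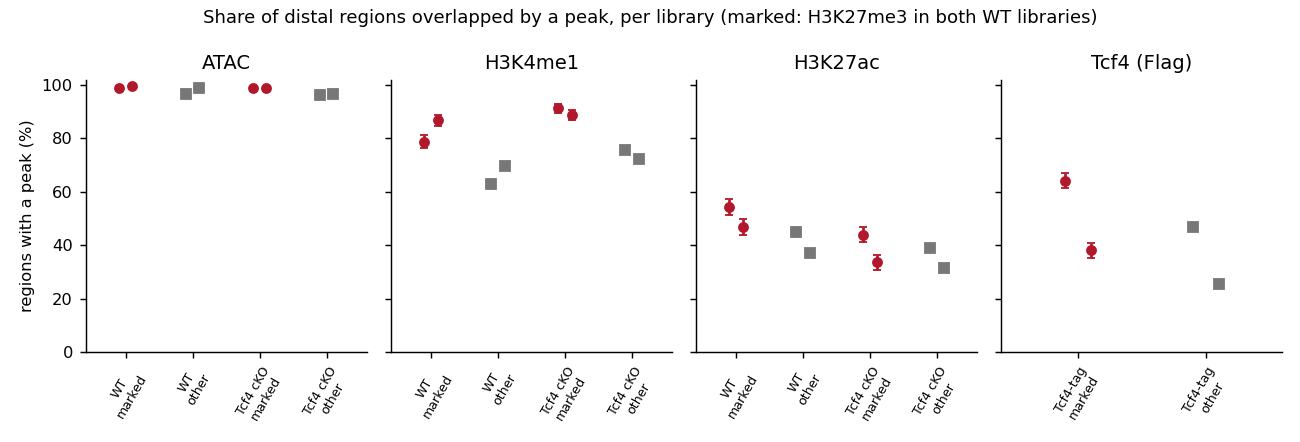
Share of regions overlapped by a peak in each library (percent), for ATAC, H3K4me1, H3K27ac and Tcf4. Red circles are the 1085 Polycomb-marked elements and grey squares the other 17126 distal regions, with 1 point per library and 95% Wilson intervals. H3K4me1 shares of the elements, 78.8% to 91.4%, all lie above those of the other regions, and H3K27ac shares of the elements are 54.2% and 46.7% in WT against 44.0% and 33.5% in Tcf4 cKO.

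H3K27ac was found at fewer elements in Tcf4 cKO than in WT. A peak overlapped 588 and 507 elements in the WT libraries (54.2% and 46.7%) and 477 and 364 in the Tcf4 cKO libraries (44.0% and 33.5%). The genotypes did not overlap, and their means were 50.5% ± 5.3 and 38.8% ± 7.4 (SD, n = 2), a difference of -11.7 points (two-sided exact permutation test, p = 0.33, the smallest possible, adjusted p = 0.5). With H3K27ac peaks of -log10 q of at least 5 the genotypes overlapped (difference -6.82 points, exact permutation test, p = 0.67), and without Tcf4 cKO replicate 2 the difference was -6.50 points. At open promoters with H3K27me3 the shares were also lower in Tcf4 cKO on average, with 81.4% and 74.8% in WT and 74.8% and 65.3% in Tcf4 cKO. At other distal regions the WT shares were 44.8% and 37.2% and the Tcf4 cKO shares 38.8% and 31.4%, so there the libraries of both genotypes overlapped. The excess of the elements over those regions was 9.37 and 9.48 points in WT and 5.17 and 2.14 points in Tcf4 cKO, a difference of -5.77 points with no overlap (exact permutation test, p = 0.33, adjusted p = 0.5). The number of H3K27ac peaks in all was 28413 and 24477 in WT and 26644 and 22026 in Tcf4 cKO, and its part in these shares was not tested.

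At single elements, H3K27ac in both WT libraries with none in Tcf4 cKO was found at 59 (5.44%), against 3.55% of all consensus regions and 4.51% of other distal regions. These were 59 of the 419 elements with H3K27ac in both WT libraries, against 773 of 4924 such other distal regions. The opposite pattern was found at 7 elements (0.65%), against 1.35% of all regions. H3K27ac was in all 4 libraries at 261 elements and in none at 349. For H3K4me1, 44 elements (4.06%) had peaks in both Tcf4 cKO libraries with none in WT. This compares with 5.42% of all regions and 4.26% of other distal regions. The reverse was found at 6 elements (0.55%), against 0.95% and 1.49%. ATAC peaks of all 4 libraries covered 1051 elements (96.9%), against 94.6% of all consensus regions. Because the elements came from the consensus of ATAC peaks, this share was bound to be near its ceiling, and the ATAC shares (99.2% ± 0.46 in WT, 98.8% in both Tcf4 cKO libraries) are given as a description.

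The most common state was H3K4me1 in both libraries with H3K27ac in 1 or none. A mark called in 1 library alone was counted here as not present, so this state is not absence of H3K27ac. In WT, H3K27ac was at 588 and 507 elements in single libraries but at 419 in both. In Tcf4 cKO, 243 elements had it in exactly 1 library. This state held 446 elements (41.1%) in WT, and 370 (34.1%) had both marks in both libraries. H3K27ac but not H3K4me1 was in both libraries at 49, and neither mark was in both at 220. In Tcf4 cKO the same 4 states held 646 (59.5%), 281 (25.9%), 18 and 140 elements. At other distal regions, the share in the first state was 33.3% in WT and 43.7% in Tcf4 cKO. The share with both marks in both libraries was 20.9% and 20.5%. These counts compare peak calls and carry no test.

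The H3K27ac and Tcf4 shares varied with accessibility, so regions of like accessibility were set side by side, at levels chosen after the values were seen. The measure was the authors' mean of normalised reads per genotype (log2), for which no value per library was used. Below 6 on this scale in WT, H3K4me1 was in both WT libraries at 176 of 256 elements (68.8%) and at 49.2% of other distal regions. Between 6 and 7 the shares were 75.8% of 372 elements and 57.4%, and at 7 or over 78.3% of 457 elements and 57.1%. The H3K4me1 gap was therefore present at each level. The H3K27ac gap in WT was small at each level, at 9.77% against 8.87%, 26.1% against 25.4% and 65.0% against 60.7% in both libraries. In both Tcf4 cKO libraries the shares were 4.30% against 9.68%, 15.9% against 21.0% and 50.1% against 49.8%, so at the lower levels the elements lay below other distal regions. The elements were also a little wider than other distal regions (median 934 and 833 bp), which raises the chance of an overlap, and the part of width was not tested.

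**Figure D2:**
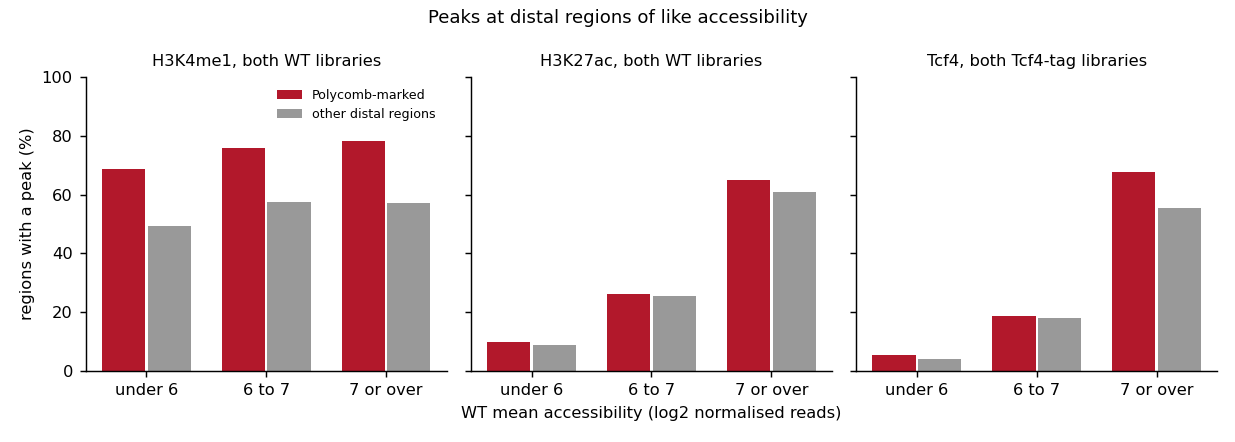
Share of distal regions with a peak (percent) in both WT libraries for H3K4me1 and H3K27ac and in both Tcf4-tag libraries for Tcf4, by WT mean accessibility (log2 normalised reads) below 6, from 6 to 7, and 7 or over. Red bars are the Polycomb-marked elements and grey bars the other distal regions. The H3K4me1 bars of the elements are higher at each level, while those for H3K27ac lie close together and those for Tcf4 part only at 7 or over (67.8% against 55.3%).

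Tcf4 peaks were called at many of these elements, in a share near that of all consensus regions. The series has no anti-Flag library without the tag, so background at open chromatin cannot be told apart from binding. Tcf4 peaks overlapped 64.1% of them in one Tcf4-tag library and 38.1% in the other, against 46.9% and 25.6% of other distal regions. Peaks of both libraries fell on 394 elements (36.3%, 33.5 to 39.2), against 22.9% of other distal regions and 37.1% of all consensus regions. The share followed accessibility. It was 5.47% and 18.8% at elements below 6 and between 6 and 7 on the log2 scale in WT, close to the 4.18% and 18.01% of other distal regions, and 67.8% against 55.3% at 7 or over.

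H3K27ac was more frequent at elements with Tcf4 peaks, as it was at other distal regions. Both WT libraries had H3K27ac at 270 of the 394 elements with Tcf4 in both libraries (68.5%), at 105 of 321 with Tcf4 in 1 (32.7%) and at 44 of 370 with none (11.9%). At other distal regions the shares were 61.4%, 33.2% and 11.6%. The part of accessibility, which was also higher with Tcf4, was not tested. In Tcf4 cKO these numbers were 212 (53.8%), 62 (19.3%) and 25 (6.76%). At other distal regions they were 47.4%, 28.4% and 12.1%. Without Tcf4 peaks, the share with H3K27ac in both libraries was thus lower in Tcf4 cKO at the elements and slightly higher at other distal regions. Single libraries did not show this rise. At other distal regions without Tcf4 peaks they had 25.6% and 19.4% in WT and 24.2% and 18.9% in Tcf4 cKO. At such elements, WT replicate 2 (19.5%) lay below Tcf4 cKO replicate 1 (21.9%), so the genotypes overlapped in both sets. Among the elements without Tcf4 peaks, 11 (2.97%) had H3K27ac in WT alone and 3 (0.81%) in Tcf4 cKO alone, against 2.63% and 2.62% of other distal regions without Tcf4.

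Over all elements, accessibility differed little between genotypes. The median of the authors' mean was 6.73 in WT and 6.69 in Tcf4 cKO (log2 normalised reads), and the median difference, Tcf4 cKO minus WT, was -0.05. It was -0.07 at other distal regions and -0.10 over all consensus regions, so the elements lay 0.04 above the whole once centred on it. A difference beyond 0.5 was found downwards at 143 elements (13.2%), against 12.6% of all regions and 20.2% of other distal regions, and upwards at 90 (8.29%), against 8.38% and 13.6%. Centring on the median of all regions turned this split to 98 lower and 122 higher, so the balance of the 2 directions rests on the scaling. These means have no values per library, and none of the differences carries a test.

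Lower means in Tcf4 cKO were more frequent among elements with Tcf4 peaks in both libraries. The median difference was -0.22 at the 394 elements with Tcf4 in both libraries, -0.02 at the 321 with Tcf4 in 1 and 0.09 at the 370 with none. Means lower by over 0.5 were found at 96 (24.4%), 25 (7.79%) and 22 (5.95%) of them, and means higher by over 0.5 at 6 (1.52%), 35 (10.9%) and 49 (13.2%). The order was similar at other distal regions, where 33.7%, 19.3% and 14.4% were lower by over 0.5. Elements with Tcf4 were also more accessible in WT (median 7.91, 6.54 and 6.11), and weakly accessible regions tended to the higher means in Tcf4 cKO. The WT mean sets the level and also enters the difference, and the part of this in the tendency was not tested. Within the levels below 6, from 6 to 7, and 7 or over, the share of elements lower by over 0.5 was 35.7%, 27.1% and 23.2% with Tcf4 in both libraries and 6.02%, 5.52% and 7.32% with none. The first of these rests on 14 elements.

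**Figure D3:**
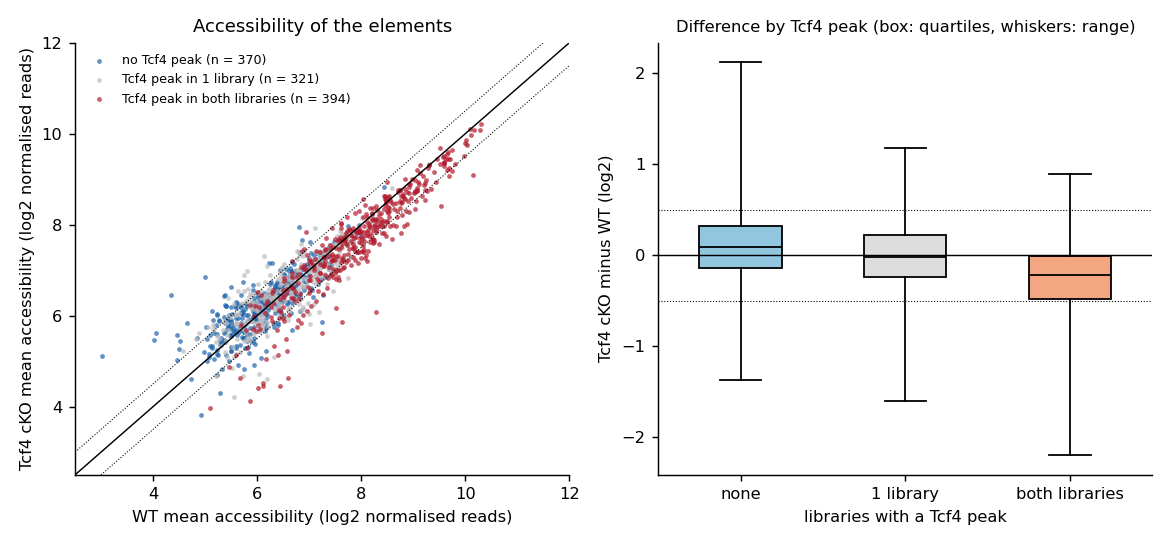
Left, the authors' mean accessibility of each of the 1085 elements in WT (x axis) and Tcf4 cKO (y axis), in log2 normalised reads, coloured by Tcf4 peaks, with the line of equality and dotted lines at a difference of 0.5. Right, the difference, Tcf4 cKO minus WT (log2), by number of Tcf4-tag libraries with a peak, as median, quartiles (box) and range (whiskers). The medians are 0.09 with no Tcf4 peak, -0.02 with a peak in 1 library and -0.22 with peaks in both.

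All 5 elements with the largest decrease in mean accessibility had Tcf4 peaks in both libraries. The largest was 1732 bp of intergenic DNA, chr3:90367920-90369651, which lay 19330 bp from Slc27a3, a fatty acid transport protein gene. ATAC fold enrichment there was 7.46 and 6.93 in WT and 4.57 and 4.78 in Tcf4 cKO, and the mean accessibility 8.28 and 6.09 (difference -2.19). Tcf4 enrichment was 10.5 and 10.6. H3K27me3 enrichment was 4.16 and 4.83 in WT, with no peak in Tcf4 cKO replicate 1 and 3.29 in replicate 2, while H3K27ac was present in all 4 libraries.

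The other 4 were in an intron of Adamts12, a secreted metalloproteinase gene (chr15:11173925-11174557), within Ripk2, a kinase gene of innate immune signalling, near the small RNA gene Gm22690 (chr4:16125289-16126402), within Rasgef1b, a gene of Ras signalling, near the non-coding Gm16227 (chr5:99505698-99506531), and between genes near Gm24014 (chr1:57573462-57574406). The last lay 105592 bp from the start site of Gm24014. The differences of the 4 elements were -1.99, -1.96, -1.78 and -1.74. At the Adamts12 element ATAC enrichment was 9.06 and 11.2 in WT and 4.64 and 5.81 in Tcf4 cKO, and Tcf4 enrichment 5.74 and 6.09. None of these 4 elements had an H3K27me3 peak in either Tcf4 cKO library.

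The 5 largest increases had no Tcf4 peak and no H3K27ac peak in any library. All 5 had WT means below 6, such as 4.34 at the A230072I06Rik element and 3.02 at the Pdzrn3 element. Of the 256 elements at that level, 166 had no Tcf4 peak, and 9.77% had H3K27ac in both WT libraries. The part of low WT accessibility in the lack of these peaks was not tested. They lay near A230072I06Rik (chr8:12135325-12136251), Pdzrn3, a ubiquitin ligase gene (chr6:101482590-101483138), the antisense gene Gm16876 within Ston2, an endocytic adaptor gene (chr12:91672312-91673100), Rreb1, a zinc finger factor gene (chr13:37761164-37761914), and Ces5a, a carboxylesterase gene (chr8:93598775-93599278). The start sites were 142568 bp away at A230072I06Rik, 104693 bp at Pdzrn3, 16486 bp at Rreb1 and 62945 bp at Ces5a. The differences of the 5 elements were 2.12, 2.08, 1.86, 1.56 and 1.44. At the Pdzrn3 and Ces5a elements, ATAC and H3K4me1 peaks were called in both Tcf4 cKO libraries but not in WT, and H3K27me3 peaks were in all 4. ATAC enrichment at the Pdzrn3 element was 7.27 and 6.25 in Tcf4 cKO, and H3K27me3 enrichment was 1.65 and 1.56 in WT and 1.62 and 1.69 in Tcf4 cKO.

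**Figure D4:**
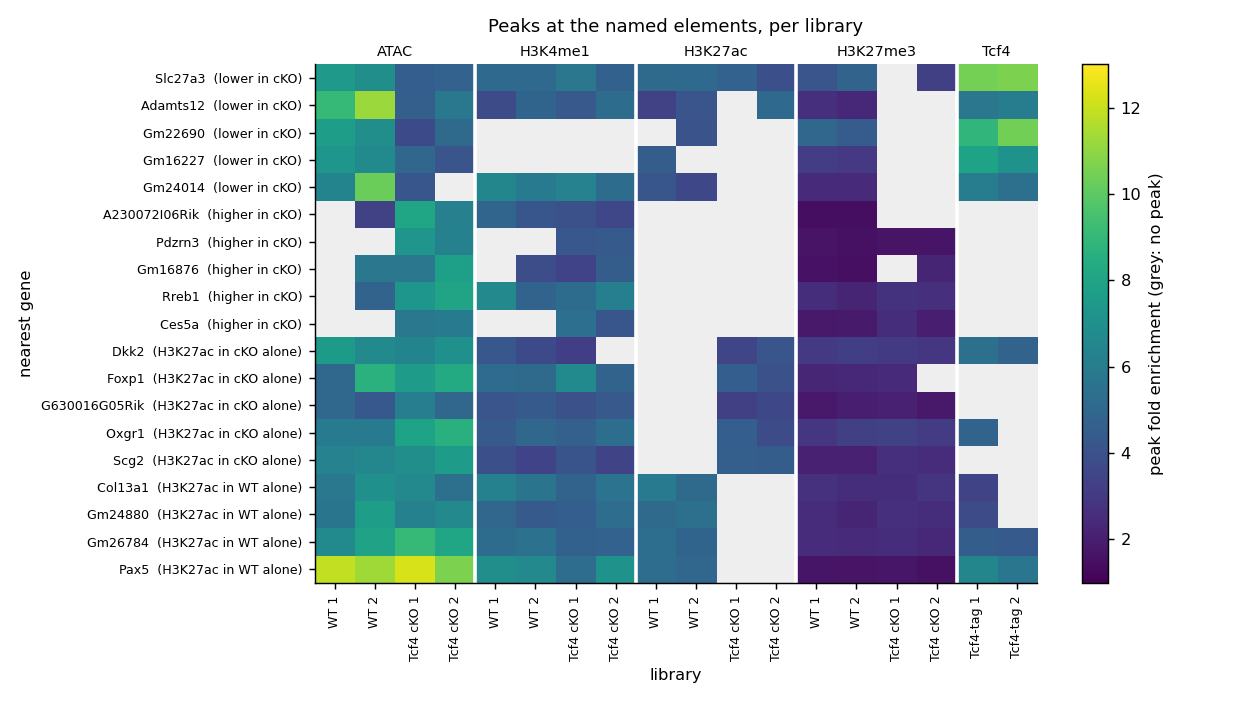
Fold enrichment of the peak in each library (columns) at named elements outside chromosome 18 (lines, by nearest gene), namely the largest differences in accessibility and elements with H3K27ac in 1 genotype alone, for ATAC, H3K4me1, H3K27ac, H3K27me3 and Tcf4, with grey for no peak. The 5 elements with the largest decrease in accessibility have Tcf4 peaks in both Tcf4-tag libraries. The 5 with the largest increase have none, and their WT mean accessibility is below 6.

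Among the 7 elements with H3K27ac in both Tcf4 cKO libraries and no WT one, the strongest lay 10179 bp from the start site of Scg2, which encodes a granin of secretory vesicles (chr1:79450299-79450969). H3K27ac enrichment there was 4.63 and 4.53 in the Tcf4 cKO libraries, while H3K27me3 was present in all 4 libraries (2.09 and 2.12 in WT, 2.67 and 2.53 in Tcf4 cKO). An element in an intron of Foxp1, a forkhead factor gene (chr6:99439616-99440613), had H3K27ac at 4.58 and 3.97 in Tcf4 cKO alone, and its mean accessibility was 5.39 in WT and 6.46 in Tcf4 cKO (difference 1.07). The next lay 112966 bp from Oxgr1, a metabolite receptor gene (difference 1.18), and in an intron of Dkk2, which encodes a secreted Wnt antagonist (0.19). Another lay near G630016G05Rik (0.24), where the closest coding gene was the homeobox gene Meis2. Of these 5 elements, only the Foxp1 one was without H3K27me3 in a Tcf4 cKO library, replicate 2.

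Among the 59 elements with H3K27ac in WT alone, the strongest was in an intron of the collagen gene Col13a1 (chr10:61936434-61937652), with H3K27ac at 5.94 and 5.14 and H3K27me3 in all 4 libraries. An element in an intron of Pax5, a paired box factor gene (chr4:44694148-44695058), had H3K27ac at 5.27 and 4.98 in WT and Tcf4 at 6.52 and 5.69. Its mean accessibility was 7.97 in WT and 7.71 in Tcf4 cKO. Others lay near the non-coding genes Gm24880, Gm26784 and Gm23895. Over the 59, the median difference in accessibility was -0.26, and 34 of them kept H3K27me3 in both Tcf4 cKO libraries.

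H3K27me3 in Tcf4 cKO is given as a description, because the mark in WT chose the elements. A peak overlapped 785 elements (72.4%) in Tcf4 cKO replicate 1 and 762 (70.2%) in replicate 2, against 5.16% and 3.90% of other distal regions. Both libraries had it at 654 elements (60.3%) and neither at 192 (17.7%). With peaks of -log10 q of at least 5 in Tcf4 cKO, both libraries had it at 12.7% of the elements. Seen from the other side, 979 distal regions had H3K27me3 in both Tcf4 cKO libraries, of which 654 (66.8%) had it in both WT libraries and 142 (14.5%) in neither. Between single libraries, 57.8% to 70.3% of the marked distal regions of 1 WT library were marked in the other, and 58.7% to 68.5% within Tcf4 cKO. From a WT to a Tcf4 cKO library the share was 49.7% to 59.8%, and in reverse 55.4% to 65.2%. These ranges overlapped, but they pool source libraries of unlike size. From WT replicate 1, 70.3% were shared with the other WT library and 59.8% and 56.8% with the Tcf4 cKO libraries. From WT replicate 2 the shares were 57.8%, 53.0% and 49.7%. From Tcf4 cKO replicate 2 they were 68.5% within the genotype and 61.3% and 65.2% to WT. From Tcf4 cKO replicate 1 they were 58.7%, 55.4% and 59.7%, so only there was the share within the genotype not the highest.

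The width of the H3K27me3 peak in WT, a split made after the values were seen, went along with most other readouts. At the 359 elements with narrow peaks, 145 (40.4%) had H3K27me3 in both Tcf4 cKO libraries, against 307 of 456 (67.3%) at intermediate width and 202 of 270 (74.8%) where peaks were wide. H3K27ac went the other way, with 68.0% and 61.8% of narrow and 39.3% and 33.7% of wide elements marked in the WT libraries, and 59.9% and 49.0% against 25.9% and 18.1% in Tcf4 cKO. Tcf4 peaks of both libraries were at 189 narrow (52.6%), 136 intermediate (29.8%) and 69 wide elements (25.6%). The median difference in accessibility was -0.07, -0.04 and -0.04. Median fold enrichment of H3K27me3 was higher at narrow peaks (2.77 and 2.70 in WT) than at wide ones (1.94 and 1.88), and the widths of the open regions were 986 and 856 bp. Elements with narrow peaks were also more accessible in WT (median 7.16, against 6.57 and 6.62), and the part of accessibility in these shares was not tested.

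**Figure D5:**
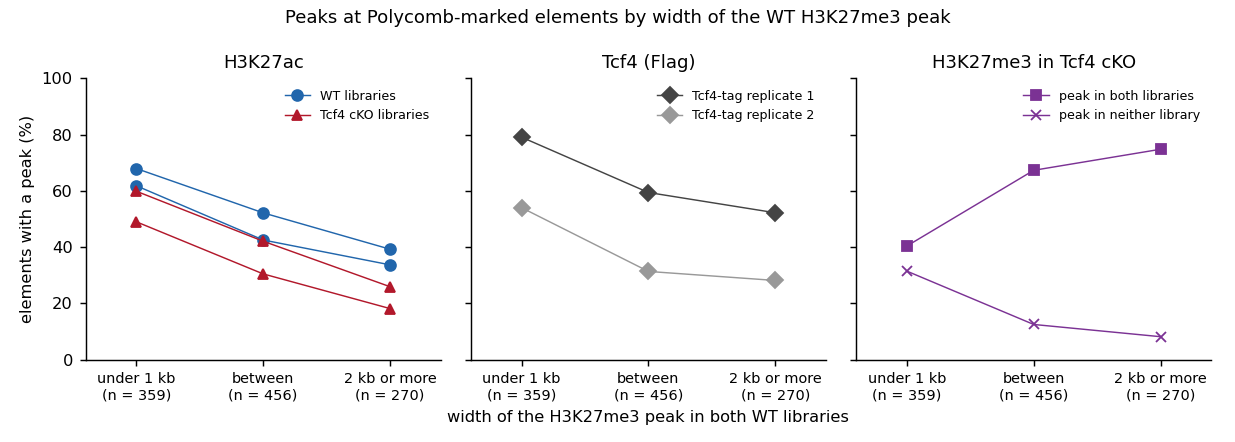
Share of the 1085 elements with a peak (percent) by width of their H3K27me3 peak in both WT libraries, under 1 kb (n = 359), between (n = 456), and 2 kb or more (n = 270). H3K27ac and Tcf4 are given per library, and H3K27me3 in Tcf4 cKO as the share with a peak in both libraries or in neither. H3K27ac and Tcf4 shares are lower at wider peaks, while H3K27me3 in both Tcf4 cKO libraries goes from 40.4% to 74.8%.

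Elements without H3K27me3 in Tcf4 cKO were also more often acetylated in WT. Of the 192 with no H3K27me3 peak in Tcf4 cKO, 96 had H3K27ac in both WT libraries, 80 (41.7%) had it in both Tcf4 cKO libraries, and 110 (57.3%) had Tcf4 in both. Of the 654 with H3K27me3 in both Tcf4 cKO libraries, the numbers were 204 (31.2%), 132 (20.2%) and 160 (24.5%). H3K27ac in Tcf4 cKO alone was found at 1 of the 192 elements (0.52%) and at 4 of the 654 (0.61%), against 1.35% of all regions. Peak calls also differed within a genotype, as single libraries shared 57.8% to 70.3% of their marked distal regions, and the part of peak calling in these classes was not tested. Their median accessibility was 7.43 in WT and 7.22 in Tcf4 cKO (median difference -0.16), against 6.50 in both genotypes (-0.02) where H3K27me3 was in both.

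Genes of the ventral forebrain, from which the Nkx2.1 lineage arises, had elements in both directions. Dlx2, a homeobox gene of interneuron development, was nearest to 3 elements, all intergenic and 34124 to 82117 bp away. All had H3K27me3 in all 4 libraries and none had Tcf4 peaks in both Tcf4-tag libraries. At chr2:71598439-71599230 the mean accessibility was 6.03 in WT and 4.72 in Tcf4 cKO (difference -1.30), and ATAC enrichment 7.14 and 8.39 against 4.2 and 6.70. At chr2:71580878-71581534 it was 6.67 and 5.68 (-0.99), with an ATAC enrichment of 12.7 and 12.2 in WT and 7.66 and 6.50 in Tcf4 cKO, so the libraries of the genotypes did not overlap. At the last, chr2:71628871-71630126, it was 6.77 and 7.42 (0.65). Of 2 elements near Nkx2-1, the gene whose promoter drives the Cre, chr12:56520947-56521622 had means of 7.80 and 7.28 (-0.53) and the other a difference of -0.23.

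The oligodendrocyte lineage list had 2 elements, both with Tcf4 peaks in both libraries and H3K27ac in all 4. The Olig2 element, chr16:91246207-91247058, lay 20657 bp from the start site of Olig2, a bHLH gene that oligodendrocyte formation requires. ATAC enrichment there was 12.7 and 12.2 in WT and 10.8 and 8.20 in Tcf4 cKO, and the mean accessibility 8.09 and 7.33 (difference -0.77). H3K27me3 enrichment was 4.42 and 3.4 in WT, and no peak was called in Tcf4 cKO. H3K27ac was 5.05 and 4.23 in WT and 5.60 and 4.46 in Tcf4 cKO, and Tcf4 7.94 and 7.25. The Pdgfra element, chr5:75148273-75149163, 3129 bp from the start site of this growth factor receptor gene, had means of 7.95 and 7.40 (-0.54) with H3K27me3 in all 4 libraries. The other bHLH element past 0.5 lay near Olig3 (difference -0.69), with H3K27ac of 5.79 and 6.34 in WT and 3.83 and 4.27 in Tcf4 cKO.

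Other developmental genes had elements with higher means in Tcf4 cKO. Near the homeobox gene En1, at chr1:120596386-120597011, no ATAC peak was called in WT, and enrichment was 5.45 and 5.56 in Tcf4 cKO (means 5.35 and 6.44, difference 1.08), with no H3K4me1, H3K27ac or Tcf4 peak in any library. Elements near Lmx1a (0.53), Dkk3 (0.65) and Prdm16 (0.56) were also past 0.5. Across the homeobox list 3 elements were lower and 3 higher by over 0.5, with a median difference of -0.07. Of all consensus regions, 12.6% were lower and 8.38% higher. The interneuron list, which also holds Dlx2, had 3 lower and 1 higher among 6, none with Tcf4 in both libraries, and the projection neuron list 0 past 0.5 among 4. The bHLH list had 2 lower and 0 higher, the forkhead and zinc finger lists 0 lower and 1 higher each, and secreted signals and their receptors 1 in each direction among 18. Among genes of Polycomb subunits and H3K27 demethylases, 5 elements were found. The one in an intron of Cbx7, which encodes a chromobox subunit of PRC1, was lower (7.94 and 7.15, difference -0.79). Of 2 elements nearest to Rybp, 1 was higher (0.61), at 143110 bp from the start site.

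Most genes had a single element. Among elements with a named nearest gene, 666 genes had 1, 76 had 2, 14 had 3, and 3 genes had 4, namely Arhgap5, Prdm16 and Tmem154. Arhgap5 showed how elements of one gene differed. The element at chr12:52429411-52430823 had means of 9.52 in WT and 8.40 in Tcf4 cKO (difference -1.12) with Tcf4 at 9.52 and 9.67, and the element at chr12:52503193-52504869, which overlapped a start site of this gene in GENCODE, had 9.30 and 9.31 (0.01) with Tcf4 at 6.75 and 4.93. The other 2 were at -0.71 and -0.01. The 4 elements within Prdm16, which encodes a zinc finger factor, ranged from -0.15 to 0.56, and none had Tcf4 in both libraries. The 4 near Tmem154 ranged from -0.54 to 0.61. Of the genes with 3 elements, taken alphabetically, Bbx, Camk1g, Casz1 and Itgb5 had 3 each with differences from -1.33 (Itgb5) to 0.90 (Casz1), and Arhgef37 had elements from -0.42 to 0.79.

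The motif content of the central 150 bases was read on both strands. CAGCTG was present in 159 elements (14.7%), against 15.5% of other distal regions and 12.9% of all consensus regions, CATCTG in 13.1% against 14.3% and 10.5%, and CAGGTG in 7.56% against 6.87% and 8.26%. The elements thus held these E-boxes about as often as other distal regions did. Within the elements the shares differed with accessibility. CAGCTG was in 39 of the 143 elements lower in Tcf4 cKO (27.3%, 20.6 to 35.1), in 13.1% of those within 0.5 and in 8 of the 90 higher ones (8.89%, 4.57 to 16.6). CATCTG was in 25.2%, 11.2% and 12.2% of them. At other distal regions CAGCTG was in 26.4% of the lower and 10.97% of the higher regions. The NFI half-site TTGGCA was in 10.3% of the elements, 12.3% of other distal regions and 8.97% of all consensus regions. It was in 10.5% of the lower (6.46 to 16.6) and 13.3% of the higher elements (7.79 to 21.9), and these intervals overlap. At other distal regions it was in 10.3% of the lower and 17.2% of the higher regions. The SOX-type words ACAAAG and ACAATG were in 12.6% and 6.45% of the elements, against 19.3% and 10.1% of other distal regions. A word match is a description of these windows and not a binding site.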

How the data were processed

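ATAC-seq and Cut&Tag peak lists of 18 libraries and 1 annotated table of consensus open regions were used. Per the study's methods, the authors trimmed reads with Trim Galore, aligned them to mm10 with Bowtie 2, and called peaks in each library with MACS2 (broad peaks for H3K27me3). The deposited peak lists hold fold enrichment over local background (a ratio) and -log10 p and q values. The deposited consensus table, which the authors made with IDR, DiffBind and ChIPseeker, holds mean log2 normalised reads per genotype, which are the authors' means without SD. Its columns of fold change, p-value and FDR are the authors' own comparison and were not used. Read depth is unknown from these files, and peak numbers stand in for it. The deposited motif footprint scores and the single-cell RNA-seq samples were not used here.

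The elements and gene lists were chosen with earlier results of these data known. Overlaps of 1 bp or more were counted with Python 3.11.15, numpy 2.4.6 and pandas 2.3.3, and the interval code was checked on simulated data. Shares per library were compared by two-sided exact permutation tests (2 against 2 libraries) with Benjamini-Hochberg adjustment over 6 comparisons. Wilson 95% intervals cover counting error. All 709410 peaks lay within the GRCm38 chromosomes, from which sequence was read with pysam 0.24.0. Of 213 elements without a gene symbol in the table, 195 were named from the GENCODE reference. Named elements were the 5 largest differences in each direction (with an ATAC peak in each library of the genotype with the higher mean), the genes with most elements (ties taken alphabetically), up to 5 elements with H3K27ac in 1 genotype alone by peak enrichment, the 5 lowest with Tcf4 in both libraries (the same elements as the 5 largest decreases), list genes with most elements or with one past 0.5, and 6 genes of the study. Alternatives were stricter peaks, wider overlaps, distance from start sites, libraries left out, the replicate block and centring.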

Additional observations from a re-analysis of the deposited data

How the results depend on the processing

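Of 152 values recomputed for 12 results under alternative choices, 8 changed sign, 37 moved past the limit set for their kind (1.5 times for a count, the 95% interval for a share or a median), and 107 did neither. For the comparisons of libraries, the 107 kept their direction but not always their size. Over all alternatives the H3K27ac difference ran from -16.9 to -6.50 points. The difference between genotypes in its excess over other distal regions ran from -8.29 to -4.25. The H3K4me1 difference ran from 3.36 to 14.5 and the ATAC difference from -2.77 to -0.07. The smallest exact p for 2 against 2 libraries is 0.33.

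The H3K4me1 gap to other distal regions, -0.35 points, became 3.43 with WT H3K27me3 peaks of -log10 q of at least 5, 2.38 with wide H3K27me3 peaks alone, 3.67 with strict H3K4me1 peaks and 0.71 with peaks over 50% of the region. Leaving out 1 library of any kind gave -1.26 to 0.23, the highest without WT H3K4me1 replicate 2. The same difference between genotypes for the ATAC gap, 0.88 points, became -0.42 with strict and -0.80 with wide H3K27me3 peaks. The median accessibility difference became -0.0081 with strict H3K27me3 peaks and 0.041 after centring. The causes were not tested.

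The number of elements, 1085, was 686 with H3K27me3 over 50% of the region, 181 with strict H3K27me3 peaks, 718 without start sites within 5 kb and 270 with wide peaks, and 1544 to 1878 with 1 WT library. In the same order, H3K27me3 in both Tcf4 cKO libraries stood at 74.6%, 90.6%, 57.2% and 74.8%, at 70.1% without narrow peaks, 82.3% in either library, 12.7% with strict Tcf4 cKO peaks, and 40.1% to 72.4% with 1 library left out. Tcf4 in both libraries stood at 28.4% with H3K27me3 over 50% of the region, 25.4% with strict and 25.6% with wide H3K27me3 peaks, 28.2% without narrow ones, 65.9% in either library, 23.5% with strict Tcf4 peaks, 32.7% with Tcf4 over 30% of the region and 37.8% to 64.1% with 1 library left out. Elements lower by over 0.5 numbered 87, 14 and 41 with H3K27me3 over 50%, strict and wide peaks, 30 at a difference over 1, and 223 to 286 with 1 WT library. Elements higher by over 0.5 numbered 11 with strict and 23 with wide peaks, 15 over 1, and 136 to 145 with 1 WT library. The splits by peak width were chosen after seeing the data.

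With the replicate block, the paired differences were the same (-11.7 points for H3K27ac, p = 0.5 by the exact sign-flip test, the smallest possible). The numbers do not pair the libraries by any label, and replicate 1 minus replicate 2 in WT and in Tcf4 cKO correlated at -0.02 for H3K27ac and H3K4me1 and -0.05 for ATAC over the elements.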

Other observations

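The elements held a small cluster of near-identical sequence. On chromosome 4, 3 elements nearest to LOC100041504 and 1 nearest to Ccl21a shared 61.8% to 100% of their 50-base words pairwise, so reads could be split among them and they are not 4 independent elements. Tcf4 peaks of both libraries were called at the 3 of LOC100041504, with fold enrichments from 4.93 to 6.13. No element had over 50% of its bases soft-masked as repeats in GRCm38, against 121 other distal regions (0.71%), and the median soft-masked share was 6.96% against 9.72%.

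Open promoters with H3K27me3 in both WT libraries numbered 2557. Their mark was in both Tcf4 cKO libraries at 1784 (69.8%, 95% Wilson interval 68.0 to 71.5), against 60.3% of the distal elements (57.3 to 63.1). H3K27ac was in both WT libraries at 70.7% of these promoters and 38.6% of the elements, and Tcf4 in both libraries at 52.8% and 36.3%. Mean accessibility differed by over 0.5 between genotypes at 61 promoters downwards and 62 upwards. These values carry no test.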
